A study of Rattus norvegicus with 8 samples.

Results

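Microglia are the resident macrophages of the brain, and 10 genes that mark them were examined: the surface receptors Itgam, Cx3cr1, Csf1r and Mrc1, the receptor adaptor Tyrobp, the intracellular markers Aif1 and Cd68, and C1qa, C1qb and C1qc, which encode the chains of complement C1q. They were taken as a set of gene names, and the rule that defines the set uses no measured value. The set was, however, chosen with earlier results of these data known. A probe whose RefSeq accession mapped to the gene was found for 9 of the 10, with 11 probes in all, among 21676 genes tested. No probe matched Mrc1, the mannose receptor of macrophages that line brain vessels and meninges, so it is not analysed here. All 9 genes were well above background on all 8 arrays.

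The arrays hold cortex of 8-week-old Wistar rats. In the HI group (4 rats, labelled Rice), the left carotid artery was cut at 7 days of age, and the pups then breathed 8% oxygen for 1 h at 33 °C, a model of neonatal hypoxia-ischemia. The 4 control rats had no insult; the sources used here do not mention sham surgery. The tissue was the cortex opposite the injured side in HI rats, and cortex of the same side in controls. Each array held RNA of 1 animal.

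Microglia depend throughout life on the receptor Csf1r and sense neurons through Cx3cr1, the receptor for the neuronal chemokine Cx3cl1. Itgam, also called CD11b, is the alpha chain of complement receptor 3, which binds fragments of complement C3 on material to be engulfed. Tyrobp, or DAP12, carries the signals of Trem2 and related receptors into the cell. In brain C1q is made largely by microglia. It starts the classical complement pathway and tags synapses for removal during development and disease. In bulk cortex fewer cells of a type and less RNA per cell cannot be told apart, and the same holds for more of either.

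Levels are on a log2 scale and relative to the 75th percentile of each array's processed signal, so a level of 0 equals that percentile. The control 1 array stood apart. Its 75th percentile was 234.2 intensity units, while those of the other 7 lay between 436.1 and 510.2, and it correlated with them at 0.902 to 0.927, against 0.967 to 0.994 among the others. For each of the 9 genes control 1 was either the lowest (4 genes) or the highest (5 genes) of the 4 controls, and the same was true of 87.5% of all genes tested. The difference of each of the 9 genes is therefore given with and without it. The HI arrays were on 1 slide with 1 scan and the control arrays on another, so slide and scan cannot be told apart from group. As a check of the tissue, all 9 neuron markers, 11 astrocyte markers and 9 oligodendrocyte markers that had a probe were well above background on every array.

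None of the 9 genes passed limma's test, a moderated linear model fitted over all genes, at an adjusted p under 0.05, which 0.918% of all genes did (0.194% higher and 0.724% lower). At an unadjusted p under 0.05, 2 of the 9 were higher after HI, Itgam and C1qc, and none was lower, where 10.6% of all genes reached that mark, 4.44% higher and 6.15% lower. Of the 9 changes 5 were above 0, against 47% of all genes. Their median was 0.00 on the log2 scale, beside -0.03 for all genes. Without control 1, 3 of the 9 had an unadjusted p under 0.05 and were higher (Itgam, C1qa and C1qc), a mark that 9.94% of all genes reached in that fit, and 7 of 9 changes were above 0. The median was then 0.13, beside 0.00 for all genes, and none of the 9 passed the adjusted threshold, which 3.64% of all genes did (1.51% higher and 2.13% lower). In that fit 20.6% of all genes had an unadjusted p under 0.05 in either direction, and 10.7% had one and were lower. None of the 9 passed the adjusted threshold without HI 2 either (0.638% of all genes), without control 1 and HI 2 together (3.22%), or with array weights, which let an array that departs from the others count less (6.12%).

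**Figure D1:**
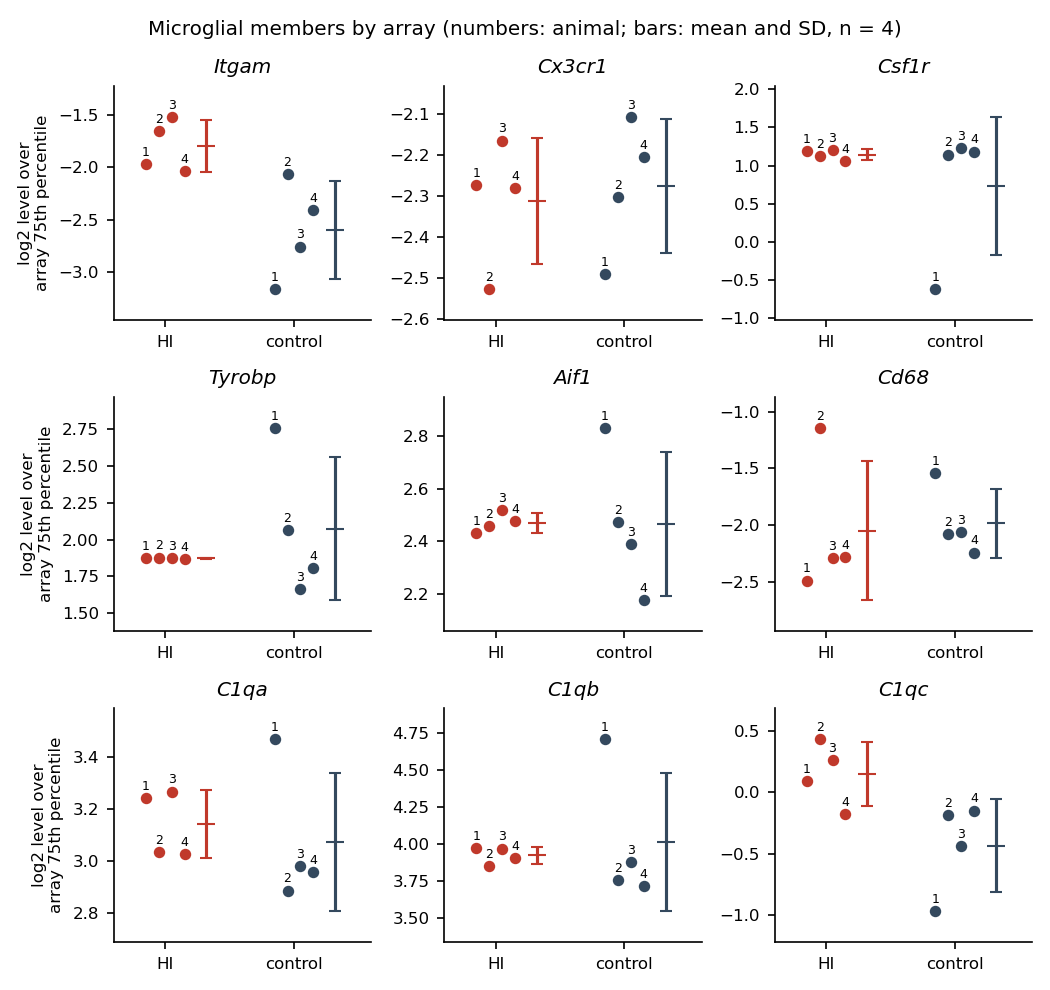
Level of each of the 9 genes on each array, as log2 over the array's 75th percentile, with HI animals on the left (red) and controls on the right (blue). Numbers name the animal, and bars give the mean and SD of 4 arrays. Itgam is the gene whose groups do not overlap, and control 1 lies at one end of the controls in every panel.

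The sequence before and around the transcription start is printed for Itgam, the gene with the lowest unadjusted p of the set, and for C1qa and C1qb, chains of a single protein whose genes lie next to C1qc in a cluster on chromosome 5. Each runs from 250 bases before the start to 50 bases after its first base, from RefSeq on GRCr8. They are Itgam at chr1:192089342-192089641 (plus strand), C1qa at chr5:154419884-154420183 (minus strand) and C1qb at chr5:154407778-154408077 (minus strand). Capitals mark GAGGAA or its reverse complement TTCCTC, the core of sites bound by PU.1 (gene Spi1), a transcription factor that myeloid cells require.
Itgam: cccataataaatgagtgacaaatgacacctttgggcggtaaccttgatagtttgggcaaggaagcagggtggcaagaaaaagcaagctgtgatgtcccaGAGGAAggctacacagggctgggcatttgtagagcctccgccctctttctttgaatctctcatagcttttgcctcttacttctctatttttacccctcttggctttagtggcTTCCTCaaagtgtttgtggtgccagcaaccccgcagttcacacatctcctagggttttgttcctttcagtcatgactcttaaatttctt
C1qa: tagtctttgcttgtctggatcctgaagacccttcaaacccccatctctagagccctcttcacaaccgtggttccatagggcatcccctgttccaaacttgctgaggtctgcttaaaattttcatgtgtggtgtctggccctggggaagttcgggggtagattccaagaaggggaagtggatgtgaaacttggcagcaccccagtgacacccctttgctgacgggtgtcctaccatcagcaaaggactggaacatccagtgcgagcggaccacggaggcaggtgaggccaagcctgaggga
C1qb: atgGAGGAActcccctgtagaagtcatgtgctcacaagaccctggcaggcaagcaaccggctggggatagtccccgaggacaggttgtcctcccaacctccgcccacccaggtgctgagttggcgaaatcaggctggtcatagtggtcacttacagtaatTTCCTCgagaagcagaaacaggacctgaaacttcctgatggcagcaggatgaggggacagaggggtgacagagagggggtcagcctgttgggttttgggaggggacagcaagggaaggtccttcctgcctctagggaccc
The leftmost bases of the matches lie at -151 and -39 in the Itgam window and at -247 and -90 in the C1qb window, counted from the start of transcription, and in each window the first is GAGGAA and the second TTCCTC. No other motif was searched. The C1qa window holds none. Of the 10 genes 7 had such a window in the table, and 5 of the 7 held the motif, each of them 2 copies (Itgam, Csf1r, C1qb, Cd68 and Mrc1). It occurs at least once in 27.6% of 33469 such windows and at least 2 times in 4.83%. A match of letters is not a binding site. The mRNA of Spi1 itself was not well above background on all arrays of either group.

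Among the receptors, Itgam was the gene with the clearest separation. It measured -1.97, -1.66, -1.52 and -2.04 in the 4 HI animals, against -3.17, -2.07, -2.76 and -2.41 in controls 1 to 4. Every HI animal lay above every control, though HI 4 and control 2 were nearly level, and 5.97% of all genes showed the same order (8.24% the opposite one). The means were -1.80 ± 0.25 in HI and -2.60 ± 0.47 in controls (SD, n = 4 each). The difference of 0.80 (SE 0.245, 95% interval 0.24 to 1.37) is 1.75-fold on the linear scale, with an unadjusted p of 0.0112 in limma's fit and an adjusted p of 0.275. Without control 1 the difference was 0.62 (SE 0.195, adjusted p = 0.142). The unadjusted p stayed under 0.05 whichever single array was left out, at 0.00312 to 0.034, and no such fit brought the adjusted p below 0.142. After normexp background correction with an offset of 50 the difference was 0.34 with 75th percentile scaling (adjusted p = 0.322) and 0.51 with quantile scaling (0.314). Itgam was a dim probe, with a processed signal of 121.2 to 165.5 in HI and 26.1 to 121.5 in controls.

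Cx3cr1 measured -2.28, -2.53, -2.17 and -2.28 in HI, against -2.49, -2.30, -2.11 and -2.21 in controls. The groups overlapped over nearly their whole range. The difference was -0.04 (SE 0.129, 95% interval -0.33 to 0.26, adjusted p = 0.885 by limma), and -0.11 without control 1 (95% interval -0.34 to 0.13). The sign turned with quantile scaling (0.04) and with the array median as the scale (0.04).

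Csf1r measured 1.19, 1.12, 1.20 and 1.06 in HI, against -0.62, 1.14, 1.23 and 1.18 in controls. The other 7 arrays lay close together, with processed signals of 1020 to 1127 where control 1 had 152.2. With all arrays the difference was 0.41 (SE 0.401, 95% interval -0.51 to 1.34, adjusted p = 0.613 by limma). Without control 1 it was -0.04, with a 95% interval of -0.18 to 0.10, the narrowest interval of the 9 genes in that fit. The positive value with all arrays rested on control 1.

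Tyrobp measured 1.87, 1.88, 1.88 and 1.87 in HI, against 2.75, 2.06, 1.66 and 1.81 in controls. The 4 HI animals were almost identical and lay inside the range of the controls. The difference was -0.20 (SE 0.226, 95% interval -0.72 to 0.32, adjusted p = 0.648 by limma). Without control 1 it was 0.03, with a 95% interval of -0.20 to 0.26.

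Of the intracellular markers, Aif1 (Iba1, an actin-binding protein used to stain microglia) measured 2.43, 2.46, 2.52 and 2.48 in HI, against 2.83, 2.47, 2.39 and 2.18 in controls. The HI animals fell within the control range. The difference without control 1 was 0.13 (95% interval -0.07 to 0.32, adjusted p = 0.427 by limma), and with all arrays its 95% interval was -0.33 to 0.34.

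Cd68, a lysosomal glycoprotein of phagocytes, measured -2.49, -1.14, -2.29 and -2.28 in HI, against -1.54, -2.08, -2.06 and -2.24 in controls. HI 2 stood far above the other 3 HI animals, all of which were below every control. The difference was -0.07 with all arrays (SE 0.307, 95% interval -0.78 to 0.64, adjusted p = 0.907 by limma). It was -0.37 without HI 2 (unadjusted p = 0.0885) and 0.08 without control 1. Without control 1 and HI 2 together it was -0.22 (unadjusted p = 0.0453, where 10.8% of all genes were lower at an unadjusted p under 0.05), and it did not pass the adjusted threshold in any of these fits.

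HI 2 also carried the highest marker sums of border macrophages and meningeal fibroblasts, though not of the choroid plexus (24.4 in HI 2 and 11.4 to 315.8 in the other HI animals, against 8.97 to 249.3 in controls). The summed linear level of the 4 measured border macrophage markers (Pf4, Clec10a, Maf and Colec12) was 5.72 in HI 2 and 2.22 to 2.48 in the other HI animals, against 2.17 to 3.70 in controls. That list has 15 genes, of which 8 had a probe, and F13a1, Cd36, Ccr1 and Ccr2 were not well above background on all arrays of either group. Clec10a, a lectin of macrophages and dendritic cells, measured 0.60 in HI 2 and -1.56 to -1.44 in the other HI animals, against -1.93 to -1.40 in controls. Colec12, a scavenger receptor, measured 1.12 in HI 2 and -1.51 to -0.94 in the other HI animals, against -1.17 to -0.91 in controls. Pf4 was also highest in HI 2, at -0.54, against -2.71 to -1.37 in the other HI animals and -2.93 to -1.14 in controls. Maf was not, at 0.42 in HI 2, 0.27 to 0.49 in the other HI animals and 0.22 to 1.32 in controls. The sum of 8 of 12 meningeal fibroblast markers was 169.2 in HI 2 and 14.6 to 50.4 in the other HI animals, against 9.76 to 41.7 in controls. The part of these cells in the Cd68 level was not tested.

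**Figure D2:**
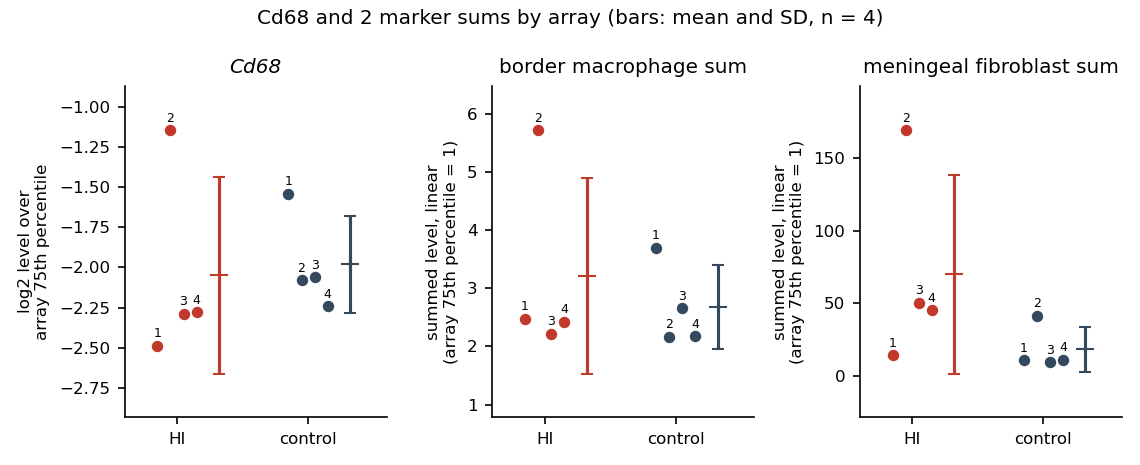
Left, Cd68 level on each array as log2 over the array's 75th percentile. Middle and right, the summed linear levels of 4 border macrophage and 8 meningeal fibroblast markers, in units of the array's 75th percentile. HI animals are on the left of each panel, numbers name the animal, and bars give the mean and SD of 4 arrays. HI 2 is the highest array in all 3 panels.

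C1qc showed the largest difference among the C1q chains. Its brighter probe measured 0.09, 0.43, 0.26 and -0.18 in HI, against -0.97, -0.19, -0.44 and -0.15 in controls. In HI 1, HI 2 and HI 3 it was above every control, and HI 4 was level with controls 2 and 4. The difference was 0.59 (SE 0.217, 95% interval 0.09 to 1.09), with an unadjusted p of 0.0266 in limma's fit and an adjusted p of 0.377. Without control 1 it was 0.41 (SE 0.155, adjusted p = 0.201). Leaving out control 3, HI 2 or HI 3 raised the unadjusted p to 0.0529, 0.0719 and 0.064. A dimmer probe of C1qc measured -1.74, -1.36, -1.60 and -1.83 in HI, against -2.89, -1.97, -2.01 and -1.68 in controls, a difference of 0.51 (SE 0.258, unadjusted p = 0.0837), and 0.26 without control 1.

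C1qa has 2 probes, and they differed on control 1. The brighter one measured 3.24, 3.03, 3.27 and 3.03 in HI, against 3.47, 2.89, 2.98 and 2.96 in controls. The HI animals were above controls 2 to 4 and below control 1. Without control 1 the groups of Itgam and C1qa do not overlap, HI being higher, as for 10.5% of all genes (11.2% the opposite). The C1qa difference was 0.07 with all arrays (SE 0.154, 95% interval -0.29 to 0.42, adjusted p = 0.809 by limma) and 0.20 without control 1 (SE 0.0831, unadjusted p = 0.0462, adjusted p = 0.233). The dimmer probe measured 2.31, 2.09, 2.29 and 2.07 in HI, against 1.87, 1.85, 1.85 and 1.89 in controls. All 4 HI animals were above all 4 controls, an order shown by 6.21% of single probes, and control 1 did not stand apart. Tested as a single probe it differed by 0.32 (SE 0.103, unadjusted p = 0.0139, adjusted p = 0.313), and by 0.32 without control 1 (unadjusted p = 0.00533, adjusted p = 0.0843). No single probe of the 11 passed the adjusted threshold, which 0.804% of all probes did. Among single probes 4.46% were higher at an unadjusted p under 0.05 with all arrays, and 9.98% without control 1. With both probes, HI 1 and HI 3 were above HI 2 and HI 4.

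C1qb measured 3.97, 3.85, 3.97 and 3.90 in HI, against 4.71, 3.76, 3.88 and 3.71 in controls. Before scaling, its processed signal was 7131 to 7721 in HI, 6117 in control 1 and 6122 to 6896 in controls 2 to 4. The share of all genes with HI above control before scaling was not counted. Control 1 had the lowest 75th percentile of all arrays, and after scaling it was the highest array for C1qb. The difference was -0.09 with all arrays (SE 0.221, 95% interval -0.60 to 0.42, adjusted p = 0.83 by limma) and 0.14 without control 1 (SE 0.0652, 95% interval -0.01 to 0.30, adjusted p = 0.281).

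**Figure D3:**
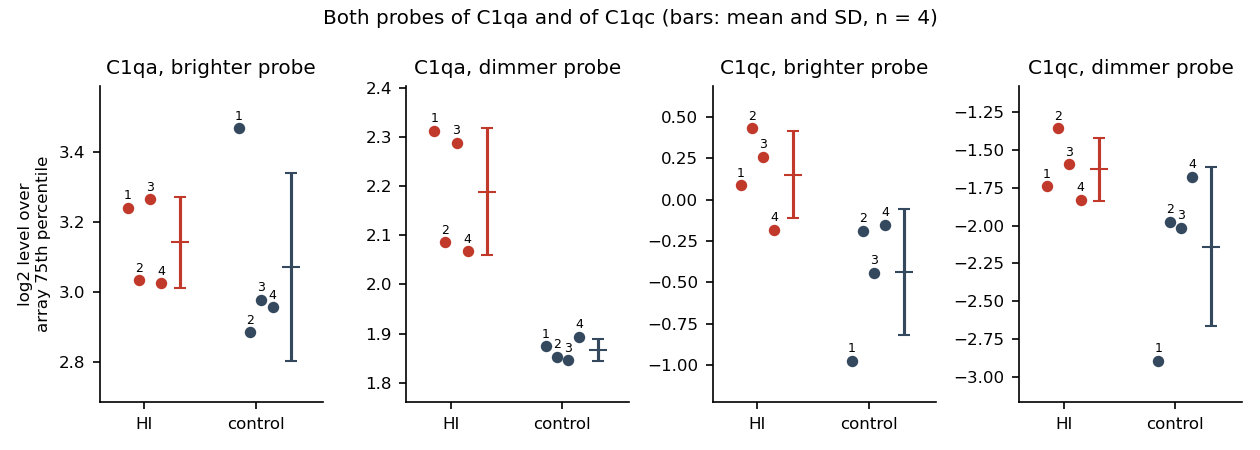
Level of the brighter and the dimmer probe of C1qa and of C1qc on each array, as log2 over the array's 75th percentile, with HI on the left (red), controls on the right (blue), numbered animals, and the mean and SD of 4 arrays as bars. Control 1 is the highest array for the brighter C1qa probe and the lowest for both C1qc probes, and it lies among the other controls for the dimmer C1qa probe.

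The 3 chains assemble into a single protein, and whether their changes differed was tested within arrays by a two-sided exact permutation test over the 70 splits of the animals. The C1qc minus C1qa difference was -2.99 ± 0.27 in HI and -3.51 ± 0.64 in controls (SD, n = 4 each), a gap of 0.52 between the groups (exact p = 0.2). The gap was 0.68 for C1qc minus C1qb (exact p = 0.143) and -0.16 for C1qb minus C1qa (exact p = 0.171). Adjusted over these 3 comparisons each p was 0.2, and the smallest p the design allows is 0.0286. A difference between the chains was thus not detected. Without control 1 the values were 0.21, 0.27 and -0.06 (exact p = 0.429, 0.257 and 0.343).

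**Figure D4:**
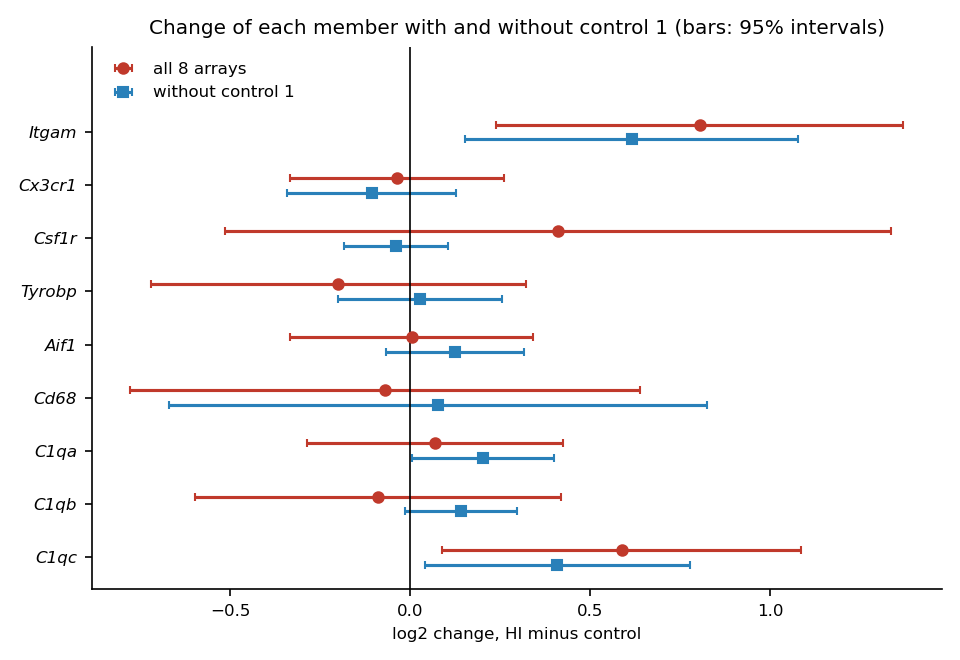
Log2 change, HI minus control, of the 9 genes with all 8 arrays (red circles) and without control 1 (blue squares), with 95% intervals from limma. Itgam and C1qc lie to the right of 0 in both fits, the interval of C1qa lies above 0 without control 1 but not with all arrays, and the intervals of Csf1r, Tyrobp and C1qb are much narrower without control 1.

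The ligands and signalling partners of these receptors had 12 of 22 listed genes measured, and none passed the adjusted test or an unadjusted p under 0.05. Their median change was 0.12, with 10 of 12 above 0, and 0.08 without control 1. In that fit 1 of the 12 was higher at an unadjusted p under 0.05, the CD47 antigen gene Cd47 (0.28, unadjusted p = 0.0158, adjusted p = 0.14). Its difference was 0.17 with all arrays. Csf1, a ligand of Csf1r, differed by 0.10 (SE 0.147) with all arrays and by 0.20 without control 1. Cx3cl1, the neuronal ligand of Cx3cr1, differed by -0.04 (SE 0.212), and by 0.16 without control 1. The kinase Syk, which acts below Tyrobp, differed by 0.10 (SE 0.122), and by 0.04 without control 1. The smallest p in this list were those of the adhesion molecule Icam1, a ligand of Itgam's receptor (0.35, SE 0.226, unadjusted p = 0.161) and of the adaptor Grb2 (0.38, SE 0.275, 0.207). Single arrays moved both, Icam1 to 0.13 without HI 2 and Grb2 to 0.08 without control 1.

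Of 29 other complement genes 17 were measured, and none passed the adjusted test or an unadjusted p under 0.05. Their median change was 0.27, with 12 above 0, 0.31 without control 1, and -0.06 without control 1 and HI 2. Cfb, factor B of the alternative pathway, measured -0.93, 0.53, -0.63 and -0.64 in HI, against -1.01, -1.18, -1.24 and -0.94 in controls. All HI animals were above all controls, with HI 2 the highest, and the difference was 0.68 (SE 0.299, unadjusted p = 0.0531, adjusted p = 0.482). It was 0.70 without control 1 and 0.36 without HI 2. C1s, a protease of the classical complement pathway, differed by 0.85 (SE 0.49), and by 0.37 without control 1. C3, the component whose fragments Itgam's receptor binds, differed by -0.20 (SE 0.265), and by -0.35 without control 1.

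Of 28 other genes enriched in microglia 16 were measured, with none past the adjusted test, 1 higher and 1 lower at an unadjusted p under 0.05, and a median of 0.09. Without control 1 the median was 0.07, with 4 higher and 2 lower at that mark. Hpgds, a prostaglandin D synthase of microglia, measured -4.37, -4.14, -4.57 and -4.16 in HI. In none of the 4 controls was it well above background. On processed signals it was at least 1.28-fold higher in HI (adjusted p = 0.0708 in limma's fit, with measured means of -4.31 in HI and -5.25 in controls), but this depended on the background correction. With normexp the fitted difference was 0.013 at 75th percentile scaling (adjusted p = 0.97) and 0.24 at quantile scaling, against 0.94 on processed signals. The adjusted p of Hpgds was 0.0513 without control 1, and it passed the threshold without control 2 (0.0286) and with array weights (0.0264). The gene was kept for testing only through the HI arrays, where it was higher. Its p values rest on control readings that were not well above background, so they are not taken as support for a change. Bin1, a membrane-bending protein that neurons and oligodendrocytes express too, differed by -0.26 (SE 0.106, unadjusted p = 0.0384, adjusted p = 0.43), and by -0.27 without control 1. With normexp and quantile scaling the Bin1 difference was -0.16. Without control 1, 1 of the 16 passed the adjusted test. It was P2ry12, the ADP receptor of resting microglia, singled out here after its values were seen. P2ry12 measured 1.55, 1.59, 1.58 and 1.77 in HI, against 2.24, 1.19, 1.08 and 0.98 in controls. The HI animals were above controls 2 to 4 and below control 1, and the difference was 0.25 with all arrays (adjusted p = 0.637) and 0.54 without control 1 (adjusted p = 0.0192).

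The 9 measured regulators of microglia, of 18 listed, had a median of 0.02 with and without control 1. Cebpb, a transcription factor of myeloid activation, measured -0.88, -0.24, -0.63 and -0.91 in HI, against -1.13, -1.48, -0.92 and -1.31 in controls. HI 4 and control 3 were nearly level at the border between the groups, and the difference was 0.55 (SE 0.19, unadjusted p = 0.0208, adjusted p = 0.348), and 0.57 without control 1. Phagocytic receptors and lysosomal genes had 17 of 23 measured and a median of 0.16, with 1 higher at an unadjusted p under 0.05. Without control 1 the median was 0.07, with 1 higher and 2 lower (Tlr2 and Ctsz, chosen for that reason). The higher gene in both fits was Mertk, a receptor for dying cells and synapses in astrocytes and microglia, at -1.36, -1.64, -1.22 and -1.76 in HI, against -2.52, -1.98, -1.84 and -1.84 in controls. The groups did not overlap, and the difference was 0.55 (SE 0.196, unadjusted p = 0.0233, adjusted p = 0.361), 0.39 without control 1, and 0.27 with normexp and 75th percentile scaling.

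Genes of reactive microglia had 11 of 21 measured, none with an unadjusted p under 0.05, and a median of 0.07, which was -0.01 without control 1. Lgals3, a lectin of activated macrophages, differed by 0.50 (SE 0.331), and by 0.57 without control 1, 0.25 without control 3 and 0.28 without HI 2. Fabp5, a fatty acid carrier, differed by -0.23 (SE 0.145), and by -0.12 without control 1. The inflammatory genes Il1b, Tnf, Nos2, Ccl2, Ccl3 and Ccl4 were not well above background on all arrays of either group. The same was true of all 5 neutrophil genes with a probe (S100a8, S100a9, Mmp8, Mmp9 and Cxcr2). Of 7 lymphocyte genes with a probe, Cd3d and Nkg7 were measured. Cd3d, part of the T cell receptor complex, measured -2.30, -2.29, -2.32 and -2.27 in HI, against -2.05, -2.89, -2.69 and -2.57 in controls, and its difference of 0.25 with all arrays was 0.42 without control 1 (adjusted p = 0.0472). The Cd3d difference was 0.14 without control 2 and 0.05 with normexp and 75th percentile scaling, and its adjusted p was 0.0796 without control 1 and HI 2. Nkg7 differed by -0.30 (SE 0.304), and by 0.02 without control 1.

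**Figure D5:**
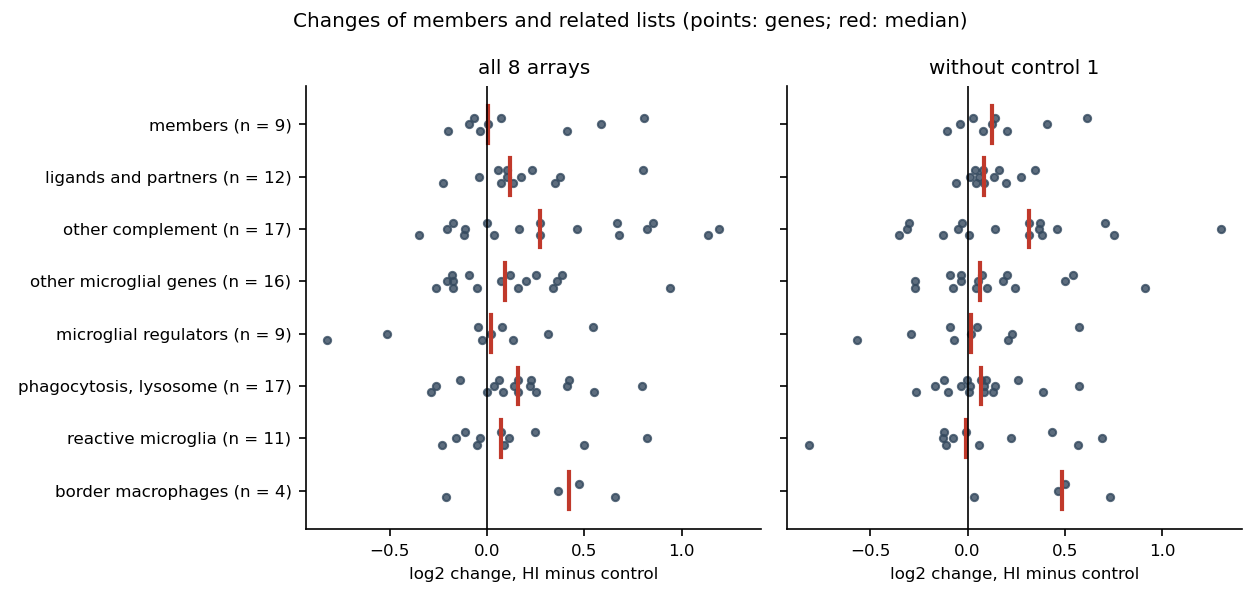
Log2 change, HI minus control, of the measured genes in each list with all 8 arrays (left) and without control 1 (right). Each point is a gene and the red bar is the list's median. The median of the 9 genes is at 0.00 with all arrays and 0.13 without control 1.

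The summed linear level of the 9 genes was 36.0 to 39.0 in HI, against 32.7 to 34.7 in controls 2 to 4 and 52.9 in control 1. Bright genes weighed most in this sum, with C1qb at 14.4 to 15.7 and C1qa at 8.15 to 9.62 in HI. Itgam added only 0.24 to 0.35 there. Neuron markers summed to 177.2 to 185.9 in HI and 167.6 to 242.6 in controls, astrocyte markers to 212.9 to 230.7 in HI and 207.8 to 263.9 in controls, and oligodendrocyte markers to 231.9 to 363.4 in HI and 257.9 to 437.3 in controls. Endothelial markers summed to 12.5 to 16.8 in HI and 12.98 to 14.4 in controls. Red blood cell genes summed to 61.1 to 114.2 in HI, against 39.1 to 54.8 in controls 2 to 4 and 96.2 in control 1. The part of these cells in the differences above was not tested.

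The genes closest to the mean profile of the 3 C1q chains over the 8 arrays were found by root mean square difference. It was taken between each gene's deviations from its own mean and the mean deviations of the 3 chains. The closest genes were Trmt1l (0.0569), Zfand3 (0.0652), Eno1 (0.0664), Abcc5 (0.0672) and Dnajc5 (0.0681), among 5774 genes with a symbol. The C1q profile itself had an SD of 0.148. For the mean profile of the other 6 genes they were Gnai3 (0.0456), the lysosomal protease Ctsl (0.0558), Vps26a (0.0581), Atp6v1g2 (0.0592) and Plod1 (0.0602). These are descriptions over 8 arrays that share scaling and slides. The C1q profile was above its mean in HI 1, HI 2 and HI 3 (0.12 to 0.19) and below it in HI 4 (-0.06), against 0.09 in control 1 and -0.17 to -0.14 in controls 2 to 4. The value in control 1 averaged opposite deviations. The probes used for C1qa and C1qb were at their highest of the 8 arrays there, and that of C1qc at its lowest. On that array the profile therefore does not stand for the single chains.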

How the data were processed

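Total RNA was labelled with Cy3 and each rat's sample was read on its own 1-colour Agilent array. The authors deposited the scanner output of Agilent Feature Extraction (9.5.3.1 per the file headers), which holds a processed intensity for every spot. The authors' deposited series table holds log2 values, normalized before deposit by steps its header does not state. Its columns follow the log2 processed signal, scaled to the 75th percentile and median-centred per probe, with correlations of 0.999884 to 0.999983, and it served as an alternative.

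Of 45018 spots per array, 1639 control spots were left out, spots marked as outliers were set to missing, and the log2 values of repeated spots were averaged, giving 41012 probes. A probe was kept if it was well above background on every array of either group (24875 probes). Accessions were matched without version to RefSeq, which named 10735 probes (26.2%). A gene was represented by its brightest kept probe.

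HI was compared with control by limma 3.58.1 (lmFit and eBayes, R 4.3.3) over 21676 genes with Benjamini-Hochberg adjustment. Each change is HI minus control in log2 units. The procedure was checked on simulated arrays carrying known changes. In them 18% of 1.5-fold, 44% of 2-fold, 76% of 4-fold and 92% of 8-fold changes passed the adjusted threshold. Changes of 1.5-fold and 2-fold were thus missed more often than found, so a gene that did not pass may still have changed. The members and the gene lists were chosen with earlier results of these data known, so no list was tested as a set. Named genes were all members with every probe, the 5 genes closest to each of 2 mean profiles, and from each list up to 4 genes with an unadjusted p under 0.05, or otherwise the 2 of smallest p. A gene that this rule names is not reported here. Csf1, Cx3cl1, Syk, Cd47, Tlr2, Ctsz, C1s, C3, P2ry12, Pf4 and Maf fall outside that rule and were added after their values had been seen. Among lists of other cells, Gjb6, Hbb, Alas2 and Slc4a1 were higher and Kdr, S100b, Atp1b2, Mog, Opalin and Gad2 lower at an unadjusted p under 0.05 with all arrays, and none of these passed the adjusted test. Without control 1 S100b passed it (-1.09, adjusted p = 0.0219). Alternatives were other background corrections, scalings, filters, probe rules and variance models, weights per array, a block for the replicate number, and fits with arrays removed.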

Additional observations from a re-analysis of the deposited data

Results flagged for a closer look

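The 9 genes form 18 groups of 4 arrays. In 4 of these groups 1 array was set apart from the other 3 by a gap that took up nearly the whole range (Dixon's test at the 95% level). Chance gives this in about 1 of 20 independent groups, but these groups share arrays. Every flagged control value was that of control 1, the lowest or highest control for 87.5% of all genes tested. The share of flagged groups over all genes was not counted, so whether the count is particular to these genes is not known. Cd68 measured -1.14 in HI 2, while the other HI animals lay between -2.49 and -2.28. Csf1r measured -0.62 in control 1, while controls 2 to 4 lay between 1.14 and 1.23. C1qa measured 3.47 in control 1, against 2.89 to 2.98 in the other controls, and C1qb 4.71 there, against 3.71 to 3.88. Control 1 also had the lowest 75th percentile of the 8 arrays, 234.2 intensity units.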

How the results depend on the processing

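None of the 9 genes passed the adjusted threshold under any alternative run. Over the alternatives fitted per gene Itgam differed by 0.34 to 0.98, C1qc by 0.31 to 0.70 and C1qa by 0.01 to 0.24, without a change of sign. Tested as single probes with all arrays, the dimmer C1qa probe differed by 0.32 and the dimmer C1qc probe by 0.51. The 199 genes that passed became 1327 with array weights, 705 without control 1 and HI 2 together, and 116 to 793 without 1 array, where removing control 1 gave 793. Same-numbered animals deviated from their group means with correlations of -0.16 to 0.03 over genes, and differently numbered ones with -0.14 to 0.15. Same-numbered arrays also had the same position on their slides. No label pairs them, and with 4 arrays per group these correlations cannot decide whether they were paired. With the replicate number as a block 69 genes passed, 0 of them members. The 2 members with an unadjusted p under 0.05 became 1 to 3 without 1 array. The count was 1 after removing control 3, HI 2 or HI 3. Of all genes, 1574 (without HI 3) to 4501 (without control 1) reached that mark in these fits. Without control 1 and HI 2 together there were 4, where 20.8% of all genes reached it. Itgam, C1qa and C1qb were higher and Cd68 lower, and C1qc had an unadjusted p of 0.0631 in limma's fit.

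Differences that turned sign were not past the adjusted threshold in either direction, though some were not small with all arrays (Opalin -0.86, Colec12 0.47, Csf1r 0.41 and Nkg7 -0.30). Without 1 array Aif1 ranged between -0.092 and 0.13 and was below 0 without control 3 (-0.022), control 4 or HI 3 (-0.012). Cx3cr1 ranged between -0.11 and 0.036, above 0 without control 3 (0.021) or HI 2, and was 0.011 with normexp and quantile scaling, 0.044 with quantile scaling and 0.039 with median scaling. Csf1r ranged between -0.040 (without control 1) and 0.58, and was -0.019 with array weights and -0.033 without control 1 and HI 2. C1qb ranged between -0.19 and 0.14 (without control 1), and was 0.15 with array weights and 0.17 without control 1 and HI 2. Tyrobp ranged between -0.34 and 0.028 (without control 1), and was 0.018 with array weights and 0.027 without control 1 and HI 2. Cd68 ranged between -0.37 (without HI 2) and 0.077 (without control 1), above 0 also without HI 1, HI 3 (0.010) or HI 4 (0.0075), and was 0.0060 with median scaling. Colec12 ranged between -0.10 (without HI 2) and 0.78, and was -0.10 without control 1 and HI 2. Nkg7 ranged between -0.50 and 0.016 (without control 1), and Opalin was 0.18 as the mean of its probes. The cause of these changes was not tested. The number of arrays limits the precision.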
